A study of Homo sapiens with 7 samples.

Results

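The STAG2 gene was put back into MOLT-14, a human line of T-cell acute lymphoblastic leukaemia, or T-ALL, of gamma delta type, and total RNA was sequenced from 1 library of STAG2-transduced cells and 1 library of cells that received the empty vector. These are 2 of the 7 libraries of the series. The other 5 came from a second T-ALL line, PF-382, as 2 wild-type libraries without treatment and 3 libraries of STAG2 knockout cells, and their values are used below only beside those of MOLT-14. Both MOLT-14 groups were otherwise untreated and were grown in the same medium. The vector, its promoter, and whether the transduced cells were a pool or 1 clone are not given in the sources used here. Genes were kept when they reached at least 5 CPM (counts brought to one fixed total per library) in either MOLT-14 library, which left 11442 of 60662 genes. With 1 library in each group no test was possible, and every difference below is a ratio of these 2 libraries, given as log2 of STAG2-transduced over empty vector.

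Cohesin is a ring of SMC1A, SMC3 and RAD21 that holds sister chromatids together and extrudes loops of chromatin. A STAG protein docks on the ring, and STAG1 and STAG2 are alternative forms of this subunit, so that a cell without STAG2 depends on STAG1. Inactivating changes of STAG2, which lies on the X chromosome, recur in several cancers, among them leukaemias. The series addressed what loss of STAG2 does to gene expression in T-ALL lines.

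STAG2 was almost absent from the empty-vector library and abundant in the STAG2-transduced one. It had 56 counts, or 1.35 CPM, with the empty vector, and 6878 counts, or 164 CPM, after transduction. The ratio was 121-fold (95% exact binomial interval 93.0 to 160.2, counting error only), a log2 ratio of 6.87, the highest among protein-coding genes. STAG2 lies at chrX:123960212-124422664 (GRCh38, GENCODE 29). By TPM, a unit scaled by transcript length, STAG2 went from 1.29 to 43.6, and its paralogue STAG1 from 24.3 to 15.8. STAG2 thus lay below STAG1 on the TPM scale with the empty vector and above it after transduction. The reads do not separate the transduced STAG2 from the cells' own, so these cannot be told apart. The effective transcript length implied by the deposited counts and FPKM was 872 bases for STAG2 with the empty vector and 2079 bases after transduction, against 4306 to 4579 bases in the 5 PF-382 libraries. The first of these values rests on 56 counts. For STAG1 the length was 4279 and 4558 bases in MOLT-14 and 4709 to 5122 bases in PF-382. For RAD21 it was 2027 and 1993 against 2600 to 2750 bases, and for SMC1A 3683 and 3706 against 4147 to 4661 bases. SMC3, at 3945 and 3938 against 3894 to 3927 bases, was not shorter in MOLT-14. STAG2 reads in both MOLT-14 libraries were therefore assigned to shorter transcripts on average than those in PF-382, among the 18 STAG2 transcripts of 296 to 6045 bases in GENCODE 29. A smaller difference of the same direction was seen for STAG1, RAD21 and SMC1A, so it was not particular to STAG2.

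The rest of cohesin stayed under 2-fold. Over all genes kept, 1.17% were at least 2-fold higher and 0.769% lower, so this alone says little in a list of this size. Of 22 cohesin genes, 20 were kept, 1 of them (STAG2) was at least 2-fold higher and 0 were lower, with a median log2 ratio of 0.27 beside 0.05 for all genes kept. STAG1 had 124.7 CPM with the empty vector and 130.3 CPM with STAG2, a ratio of 1.04-fold (1.01 to 1.09), so that the paralogue differed by a few percent. Among the ring subunits SMC1A had 219 and 308.5 CPM (0.49), RAD21 574 and 741 CPM (0.37) and SMC3 142 and 169.6 CPM (0.26). The loader NIPBL had 121 and 110.1 CPM (-0.14), and its partner MAU2 had 103.6 and 122.6 CPM (0.24). Of the release factors, WAPL had a log2 ratio of 0.07, PDS5A -0.10 and PDS5B -0.24. The acetyltransferases ESCO1 and ESCO2 had log2 ratios of -0.23 and 0.29, and HDAC8, which removes the same mark, -0.17. Ratios were largest for the genes that guard and cut cohesin in mitosis, namely PTTG1 (securin, 0.70), ESPL1 (separase, 0.65), CDCA5 (sororin, 0.60) and SGO1 (shugoshin, 0.54), with SGO2 at 0.17. CTCF, the factor at which loops stop, had 172.9 and 227.8 CPM (0.40). The germline subunit STAG3 was at the edge of the threshold, with 3.91 and 5.09 CPM and some shared reads. Under TPM the median of the list was -0.36 beside -0.50 for all genes, so the sign of these small ratios depended on the unit.

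**Figure D1:**
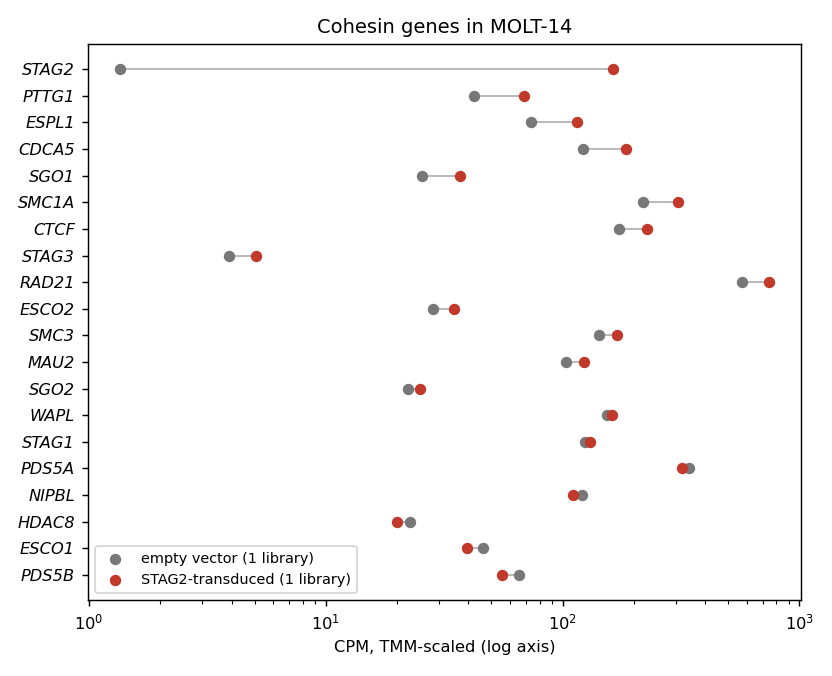
CPM of the 20 kept cohesin genes in the empty-vector (grey) and the STAG2-transduced (red) MOLT-14 library, on a log axis, 1 library each. STAG2 alone spans a wide gap, from 1.35 to 164 CPM, while STAG1 has 124.7 and 130.3 CPM.

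Promoters of genes from 3 groups described below are shown here. Most kept members of each group had ratios of one sign (35 of 35 mitosis, 19 of 20 unfolded protein response and 18 of 22 immediate early genes). Other lists did too, among them histones (23 of 24 positive) and DNA replication (37 of 42 positive). Over all genes kept 6590 ratios were positive and 4852 negative. With TPM the mitosis median was 0.03 and that of all genes -0.50. Sequences are the bases just before the RefSeq gene start (GRCh38.p14), 5′ to 3′ on the gene's strand, cut before any GENCODE 29 exon of the gene. Capitals mark matches, on either strand, of the motif named for that gene, and matches of the other motifs are left in lower case. KIF11, a mitotic motor, and CCNB2, cyclin B2, carry the CCAAT box (CCAAT). KIF11 also carries the cell-cycle homology region (CHR, TTTGAA), a site where the DREAM and MuvB complexes are known to bind. HSPA5, the chaperone BiP, and XBP1, a transcription factor of the unfolded protein response, carry the ER stress response element (ERSE), which is CCAAT, 9 bases and CCACG, so each ERSE holds a CCAAT box. EGR1, an immediate early factor, carries CArG boxes, the known site of serum response factor. The KIF11 window is chr10:92592880-92593129 (plus strand), that of CCNB2 chr15:59104896-59105077 (plus), that of HSPA5 chr9:125241344-125241593 (minus), that of XBP1 chr22:28800598-28800819 (minus) and that of EGR1 chr5:138465229-138465478 (plus).
KIF11: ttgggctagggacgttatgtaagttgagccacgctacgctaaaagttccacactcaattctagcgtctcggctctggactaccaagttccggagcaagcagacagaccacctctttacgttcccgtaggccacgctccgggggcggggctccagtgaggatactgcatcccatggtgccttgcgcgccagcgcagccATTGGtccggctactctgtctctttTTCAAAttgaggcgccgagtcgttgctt
CCNB2: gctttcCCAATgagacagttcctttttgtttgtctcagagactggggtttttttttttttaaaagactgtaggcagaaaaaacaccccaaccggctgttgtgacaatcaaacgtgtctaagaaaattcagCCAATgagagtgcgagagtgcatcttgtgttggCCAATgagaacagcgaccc
HSPA5: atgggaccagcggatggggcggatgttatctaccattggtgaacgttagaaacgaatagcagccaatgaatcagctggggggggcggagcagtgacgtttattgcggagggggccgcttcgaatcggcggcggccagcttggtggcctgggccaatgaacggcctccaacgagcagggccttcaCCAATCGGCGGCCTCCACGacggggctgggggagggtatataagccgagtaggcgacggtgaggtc
XBP1: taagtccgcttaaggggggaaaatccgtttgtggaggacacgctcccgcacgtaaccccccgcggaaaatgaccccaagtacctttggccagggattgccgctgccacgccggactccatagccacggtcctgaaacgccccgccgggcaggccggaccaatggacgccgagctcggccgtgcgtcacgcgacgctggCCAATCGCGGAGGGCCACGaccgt
EGR1: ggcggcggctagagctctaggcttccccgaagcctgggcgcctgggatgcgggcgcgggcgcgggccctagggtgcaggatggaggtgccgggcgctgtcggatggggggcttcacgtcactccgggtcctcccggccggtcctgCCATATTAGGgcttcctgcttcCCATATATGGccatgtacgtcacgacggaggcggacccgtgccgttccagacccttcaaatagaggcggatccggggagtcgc
In KIF11 both matches lie on the opposite strand, the CHR from 28 and the CCAAT box from 53 bases before the start. CCNB2 has a CHR from 29 bases before the RefSeq start, beyond the printed stretch. Over the 250 bases before the start, 13.3% of all 35116 RefSeq promoter windows held a CHR, 32.0% a CCAAT box and 4.69% both. Of the 37 windows of 28 mitosis genes found in that table, 17 (45.9%) held a CHR, 26 (70.3%) a CCAAT box and 14 (37.8%) both. A CCAAT box was also in 18 of the 22 windows (81.8%) of unfolded protein response genes, whose ratios were mostly negative, in 8 of 30 (26.7%) of immediate early genes and in 1 of 7 (14.3%) of GIMAP genes. An ERSE was in 0.074% of all windows and in 5 of these 22 windows (22.7%), those of HSPA5, XBP1, CRELD2, HSP90B1 and PDIA6. A CArG box was in 1.16% of all windows and in 2 of 30 windows (6.67%) of immediate early genes, those of EGR1 and EGR2. These are matches of letters, not measured sites.

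The libraries held 38678382 counts for the empty vector and 45013453 for STAG2, so that 3 counts made 0.0725 and 0.0713 CPM. Their make-up differed: small RNA took 4.87% of the empty-vector counts and 9.27% of the STAG2 counts, and the mitochondrial ribosomal RNAs took 3.16% and 0.488%. Scaling to total counts in place of TMM (trimmed mean of M-values) lowered the median log2 ratio of all genes by 0.20, and TPM by 0.55, so list values below are read against the median of all genes. Protein-coding genes in the fifth of lowest GC content had a median of -0.05 and those in the fifth of highest GC content 0.14. How far the make-up of the libraries bears on single genes was not tested.

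At least 2-fold higher with STAG2 were 134 genes, STAG2 included (1.17% of genes kept), and at least 2-fold lower were 88 (0.769%). At these shares a count of 0 past 2-fold in any gene list below says little. A positive ratio was found for 6590 genes and a negative one for 4852, and the 5th and 95th percentiles were -0.48 and 0.55. As a yardstick, 6.61% of genes were past 2-fold between both PF-382 libraries of wild type, and 1.30%, 1.21% and 0.978% between the 3 pairs of knockout libraries, counting both directions. The sum for MOLT-14, 222 genes, was thus a smaller share than that between the wild-type libraries and a larger one than those between knockout libraries. Higher genes made up 60.4% of the 222 with TMM, 49.1% with upper-quartile scaling, 50.8% with scaling on protein-coding genes alone, 27.7% with total counts and 10.2% with TPM. They made up 48.9% with a floor of 1 CPM and 29.8% with no floor. Of the 222 genes 69 had fractional counts, meaning that reads were shared with other genes. Among all 11442 genes kept, 2696 had them. At the threshold, MLH3 (5.001 CPM with the empty vector) was just inside the floor and TBC1D8 (4.993 CPM with STAG2) just outside, and the 2-fold line ran just under NEDD9 (4.23 and 8.51 CPM) and just over TUBB3 (6.62 and 13.2 CPM).

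**Figure D2:**
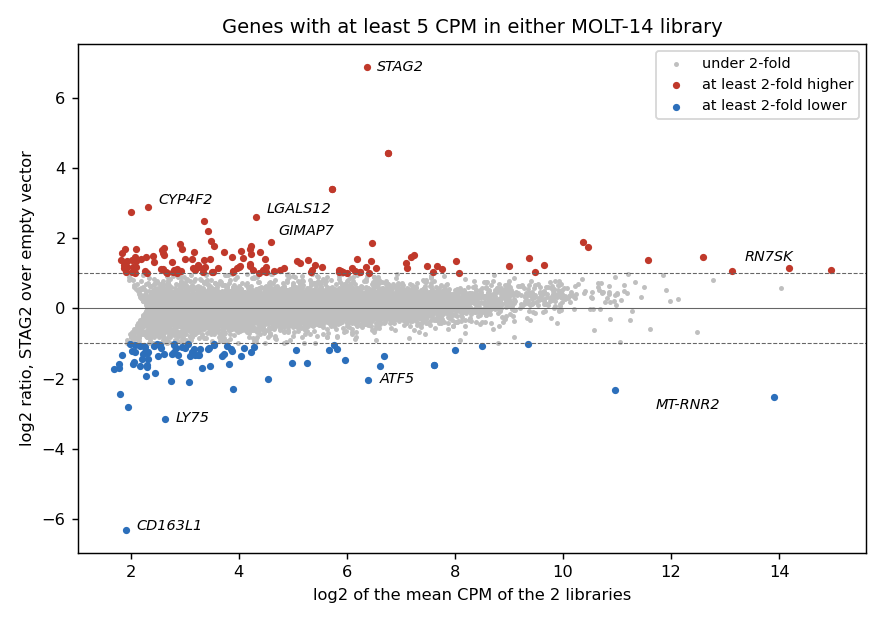
Log2 ratio of STAG2-transduced over empty vector against log2 of the mean CPM for the 11442 genes kept in MOLT-14 (1 library each). Red points (134) are at least 2-fold higher and blue points (88) at least 2-fold lower. STAG2 (6.87) and CD163L1 (-6.30) stand farthest out.

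The most reduced protein-coding gene was CD163L1, a scavenger receptor of the family that includes WC1 of gamma delta T cells. It had 310 counts in the empty-vector library and 2 in the STAG2 library, a 157.5-fold difference (interval 43.2 to 1306) and a log2 ratio of -6.30. LY75, the endocytic receptor DEC-205, had 11.1 and 1.21 CPM and was 9.19-fold lower (6.87 to 12.5), with some shared reads. CR1, a complement receptor, had 6.84 and 0.927 CPM and was 7.37-fold lower (5.26 to 10.6). These 3 surface receptors were close to absent after transduction. VCAN, the matrix proteoglycan versican, had 24.7 and 4.95 CPM, and LGALS1, galectin-1, had 37.5 and 9.32 CPM. The stress factor ATF5 had 135.8 and 33.2 CPM. Log2 ratios of the other 9 were DNAH5 (an axonemal dynein) -2.44, ISM1 -2.07, GADD45G -1.92, TNFRSF19 -1.84, MLH3 (mismatch repair) -1.73, FUT7 (selectin ligand synthesis) -1.70, NPTX1 -1.69, FZD8 (a Wnt receptor) -1.67 and KCNG1 -1.65. Apart from VCAN, LGALS1, ATF5 and NPTX1, these genes had 11.1 CPM or less in the empty-vector library.

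Among higher genes, LGALS12, galectin-12, had 5.61 CPM with the empty vector and 34.2 CPM with STAG2, a 6.10-fold difference (5.31 to 7.04). CYP4F2, a fatty acid hydroxylase, had 1.16 and 8.80 CPM and was 7.59-fold higher (5.61 to 10.5), but it shares reads with its paralogues. IL32, a cytokine of lymphocytes, had 3.82 and 17.7 CPM, also with shared reads. All 3 were low with the empty vector. SH3BP5, a regulator of Rab11 and JNK, had 38.2 and 139.7 CPM (3.66-fold, 3.46 to 3.87). The receptor kinases EPHA4 (4.66 and 17.7 CPM), EPHA2 (1.74 and 5.68 CPM) and TIE1 (2.85 and 9.44 CPM) were all at least 3-fold higher. RUNX1T1, the partner of RUNX1 in a leukaemia fusion, had 10.3 and 31.7 CPM (log2 1.61), and TOX2, an HMG-box factor of lymphocytes, had 3.62 and 11.8 CPM (1.69). The protease CTSH had a log2 ratio of 1.76 and ADARB2 of 1.83. CU639417.1, which has shared reads, had 1.61. Chosen after its values were seen, WT1 had 6.01 and 16.1 CPM (1.41) and its overlapping antisense gene WT1-AS had 2.85 and 9.11 CPM (1.66). The strand setting of the counting is not given in the sources used here, so reads of these overlapping genes cannot be told apart.

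The GIMAP family was the gene list with the highest median. GIMAP proteins are GTPases of the lymphocyte endomembrane that are known to act in T-cell survival, and their genes form 1 cluster at chr7:150450630-150750033 (GRCh38, GENCODE 29). Of 7 listed genes 6 were kept, 5 were at least 2-fold higher and 0 lower, with a median of 1.34. GIMAP7 had 10.2 CPM with the empty vector and 37.9 CPM with STAG2 (log2 1.89, 3.72-fold, 3.34 to 4.15). GIMAP1 had 12.2 and 32.5 CPM (1.41), and GIMAP5 had 18.9 and 48.6 CPM (1.36). GIMAP8 had 3.87 and 9.77 CPM (1.33). GIMAP6 had 42.3 and 85.2 CPM (1.01), and GIMAP2 had 48 and 89.9 CPM (0.91, just short of 2-fold). All 6 were thus higher in the STAG2-transduced library, by 0.91 to 1.89. GIMAP4 stayed under the floor, with 0.604 CPM (25 counts) and 3.90 CPM (164 counts). The readthrough gene GIMAP1-GIMAP5, which shares reads with GIMAP1 and GIMAP5, had a log2 ratio of 1.69. The 16 other genes kept within 500 kb of the cluster had log2 ratios from -0.29 to 0.47, with a median of 0.04, and 0 of them were past 2-fold. The list's median was 1.15 with total counts and 0.56 with TPM, above that of all genes in each case (-0.15 and -0.50).

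**Figure D3:**
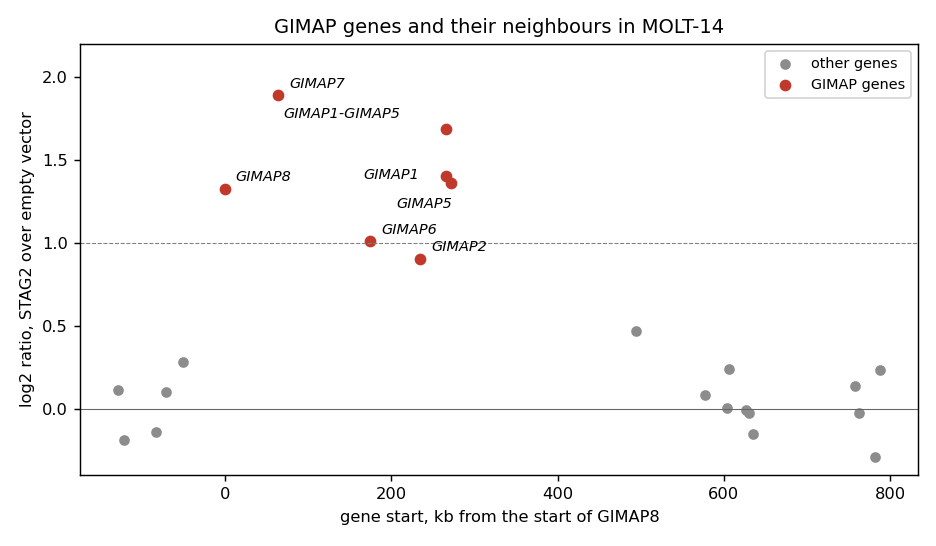
Log2 ratio of STAG2-transduced over empty vector for kept genes in and within 500 kb of the GIMAP cluster, by distance of the gene's start from that of GIMAP8 in kb. GIMAP genes (red) lie at 0.91 to 1.89 and the 16 neighbours (grey) at -0.29 to 0.47.

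T-cell genes were expressed in both libraries. CD3D had 361 and 346.5 CPM, CD3E 222.6 and 216.7 CPM and CD7 489 and 508 CPM. Of 32 genes of CD3 and T-cell receptor signalling 27 were kept, 24 had a positive and 3 a negative ratio, 0 were past 2-fold, and the median was 0.29 (-0.28 with TPM, beside -0.50 for all genes). CD5, which dampens receptor signalling, had 68.8 and 118.8 CPM (0.79). The delta chain TRDC had 73.3 and 69 CPM, and the gamma chains TRGC1 and TRGC2 had 28.7 and 40 CPM and 234.7 and 323.7 CPM. Of 19 gamma delta genes 10 were kept and 0 were past 2-fold, with a median of 0.20, ETV5 (332 and 465 CPM, 0.49) and TRGC1 (0.48) having the largest ratios. The beta chains TRBC1 and TRBC2 had 744 and 861 CPM and 142.6 and 153.7 CPM. Delta, gamma and beta chain transcripts were thus present in both libraries. TRAC, the alpha chain, had 0.29 and 2.31 CPM, and CD2 had 1.28 and 4.28 CPM, both under the floor. Of 34 thymocyte genes 25 were kept with 0 higher, 1 lower (ID2, an inhibitor of E proteins, 9.86 and 4.49 CPM, -1.12) and a median of 0.13. The cortical thymocyte markers CD1B (0.98) and CD1A (0.80) stayed short of 2-fold. Of 27 Notch genes 16 were kept with 0 past 2-fold and a median of -0.02. NOTCH1 had 956.5 and 793 CPM, NOTCH3 (-0.52) and NOTCH2 (-0.43) had the largest ratios, and the target HES1 had 64 and 83.5 CPM (0.38).

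Among progenitor genes 1 was past 2-fold. CD34, the surface marker of blood stem cells, had 3792 counts or 91.6 CPM with the empty vector and 1382 counts or 32.9 CPM with STAG2, and was 2.79-fold lower (2.62 to 2.97; log2 -1.48). It was the only one of 9 kept stem and progenitor genes past 2-fold, of 23 listed, and the median of the list was 0.22. LMO2, a T-ALL oncogene of progenitor cells, had 32.5 and 35.3 CPM (0.12). LYL1, its partner, had 54.4 and 87.6 CPM (0.69), HHEX, a target of both, 30.7 and 45.7 CPM (0.57), ERG 49.1 and 60.2 CPM (0.29) and GATA2 17.1 and 13.3 CPM (-0.36). CD34 was thus lower while LMO2, LYL1 and HHEX were not. Of 20 T-ALL oncogenes 9 were kept with 0 past 2-fold and a median of 0.18, NKX2-1 (0.82, near the floor) and LYL1 having the largest ratios. MYC had 230.7 and 210.1 CPM (-0.14) and MYB 448 and 490 CPM (0.13). TAL1 had 1.40 and 1.17 CPM and SPI1 had 0 counts in both. None of the 11 HOXA genes reached the floor (0 kept).

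Most genes of the integrated stress and unfolded protein response lists had negative ratios. ATF5, induced when translation is restrained, was 4.09-fold lower (3.85 to 4.34), and TRIB3, a pseudokinase target of the same pathway, had 147.4 and 47.3 CPM and was 3.12-fold lower (2.96 to 3.28). They were the only 2 of 25 kept integrated stress response genes past 2-fold (of 30), 18 having a negative ratio and the median being -0.17. Other targets were not lower to this extent: DDIT3 had 39.4 and 33.8 CPM (-0.22), CHAC1 -0.20 and ASNS -0.33, while DDIT4 had 0.40 and PHGDH 0.58. ATF4, the factor of the pathway, had 674.8 and 851 CPM (0.33). Of the 20 unfolded protein response genes, all kept, 19 had a negative ratio, 1 was at least 2-fold lower and 0 higher, with a median of -0.33. XBP1 had 71 and 30.9 CPM and was 2.30-fold lower (2.15 to 2.46). ERN1, the sensor kinase that splices XBP1, had 55.2 and 32 CPM (-0.79), HERPUD1 84.3 and 52.5 CPM (-0.68) and HSPA5 143.9 and 93.7 CPM (-0.62). This was the lowest median of all lists with 5 or more kept genes. It was -0.53 with total counts and -0.92 with TPM, where that of all genes was -0.15 and -0.50.

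Immediate early genes showed a similar tilt. Of 30 listed, 22 were kept, 18 had a negative ratio, 2 were at least 2-fold lower and 0 higher, and the median was -0.20. EGR1 had 23.8 CPM with the empty vector and 9.20 CPM with STAG2 (2.59-fold lower, 2.30 to 2.92), and FOSB 20.1 and 8.99 CPM (-1.16). FOS (-0.93), the mRNA decay factor ZFP36 (-0.93) and JUN (-0.62) stayed short of 2-fold. Of 16 ERK feedback genes 11 were kept with 1 higher, CCND1 (cyclin D1, 3.07 and 7.68 CPM, 1.31), 1 lower, the phosphatase DUSP4 (9.86 and 4.16 CPM, -1.23), and a median of -0.12. Of 26 p53 targets 24 were kept with 0 higher and 1 lower, 16 having a negative ratio, and a median of -0.16. The lower gene was TNFRSF10B, the death receptor DR5, with 21.2 and 6.99 CPM (-1.59). Of 28 cytokine and JAK-STAT genes 22 were kept with 0 higher and 1 lower, and a median of 0.04. The lower one was the feedback inhibitor SOCS1 (18.8 and 7.56 CPM, -1.31), while the receptor IL9R had 27.9 and 54.5 CPM (0.96). Heat shock genes (18 kept of 21, median -0.09) and hypoxia genes (16 of 22, median -0.09) had 0 past 2-fold. Their largest ratios were HSPH1 -0.67 and HSPA1B -0.57, and MXI1 -0.90 and EPAS1 0.73. BCL2 family genes (12 of 16, median 0.01) also had 0 past 2-fold, the largest ratios being BCL2L11 (-0.41) and BAK1 (0.40), and BCL2 had 78.7 and 65.4 CPM.

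**Figure D4:**
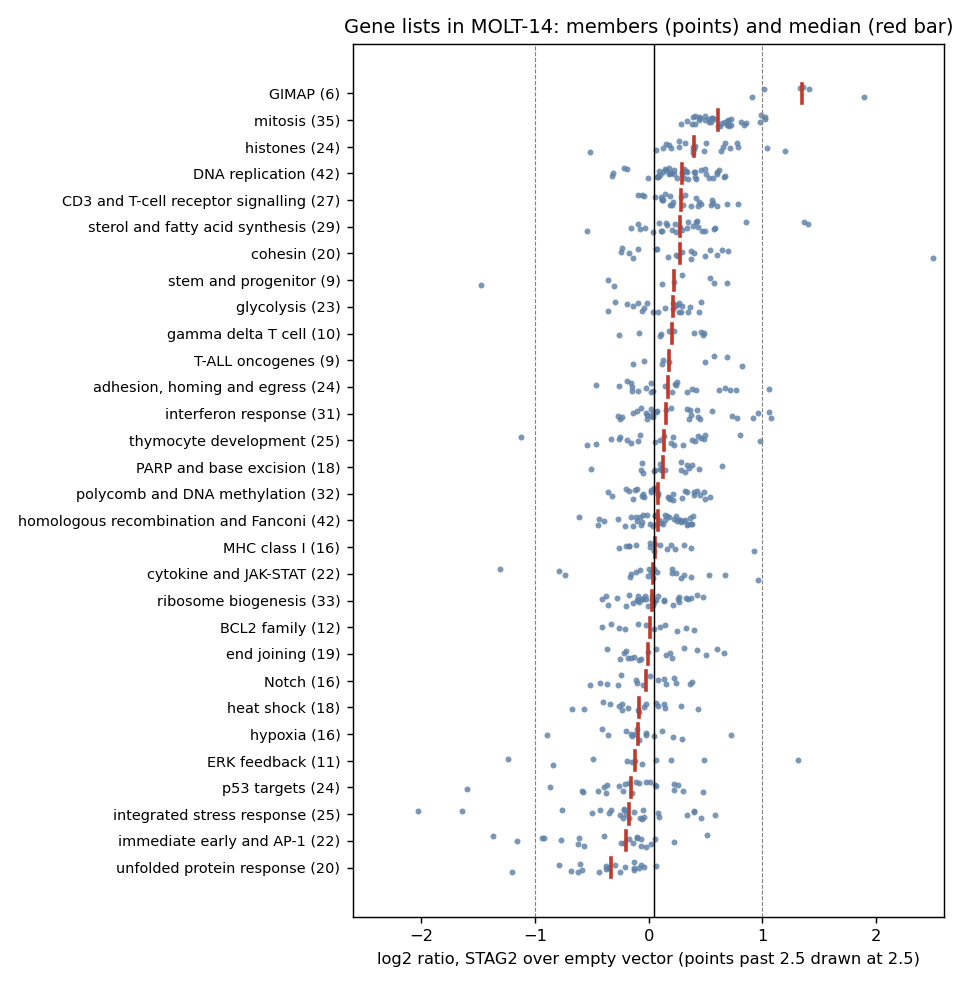
Log2 ratio of STAG2-transduced over empty vector for each kept member of the gene lists with 5 or more kept members (points, number kept in parentheses), with the list's median (red bar). The vertical black line is the median of all genes (0.05). GIMAP (1.34) and mitosis (0.61) have the highest medians and the unfolded protein response (-0.33) the lowest.

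Most cell division genes had positive ratios under 2-fold. All 35 mitosis genes were kept, 35 had a positive ratio, 2 were at least 2-fold higher and 0 lower, with a median of 0.61 and a range of 0.28 to 1.03. The median was 0.41 with total counts and 0.03 with TPM, where that of all genes was -0.15 and -0.50. PLK1, the kinase of mitotic entry, had 50 CPM with the empty vector and 101.8 CPM with STAG2 (2.04-fold, 1.93 to 2.15). KIF20A, a motor of cytokinesis, had 40.3 and 82 CPM (2.03-fold, 1.92 to 2.16). CCNB2 had 56.1 and 111.6 CPM (0.99) and the centromere motor KIF2C 81.8 and 161.5 CPM (0.98), both just short of 2-fold. Of the others shown, AURKB had 0.81, BIRC5 (survivin) 0.72, CCNB1 0.72 and CDK1 0.41, and KIF11, whose promoter is printed above, had 133.5 and 174.9 CPM (0.39). Of the 42 replication genes, all kept, 37 had a positive ratio, 0 were past 2-fold, and the median was 0.29 (-0.28 with TPM). CDC45 (94.7 and 150.8 CPM, 0.67) and ORC1 (69.6 and 110 CPM, 0.66) had the largest ratios, and MCM2 had 0.60. Of 25 listed histone genes 24 were kept, 23 had a positive ratio, 2 were at least 2-fold higher and 0 lower, with a median of 0.39 (-0.18 with TPM). HIST1H4C had 311.5 and 714 CPM (1.20) and HIST1H3H 470.6 and 965.5 CPM (1.04). Over all 64 kept HIST1 and HIST2 genes 10 were at least 2-fold higher and 0 lower, with a median of 0.66. Most histone transcripts lack a poly(A) tail, and small RNA, which lacks it too, took 9.27% of counts with STAG2 against 4.87%. Whether this difference between the libraries bears on the histone values was not tested.

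In 3 lists of DNA repair genes 0 were past 2-fold. Over all genes kept, 1.17% were at least 2-fold higher and 0.769% lower, so a 0 in lists of this size says little. MLH3, a mismatch repair gene outside these lists, had -1.73. All 42 homologous recombination and Fanconi genes were kept, 0 were past 2-fold, and the median was 0.08. FANCB (19 and 12.4 CPM, -0.61) and ATR (93.3 and 68.3 CPM, -0.45) had the largest ratios. ATM had -0.44, BRCA1 171.6 and 178.2 CPM (0.05), and BRCA2 89.7 and 82.7 CPM (-0.12). Of 20 end joining genes 19 were kept with 0 past 2-fold and a median of -0.01, MAD2L2 (0.66) and XRCC1 (0.60) having the largest ratios. Of 19 PARP and base excision genes 18 were kept with 0 past 2-fold and a median of 0.13. PARP1 had 237 and 299 CPM (0.33), PARP2 28.2 and 44.2 CPM (0.65), and NEIL2 -0.50. SLFN11, a gene tied to the response to DNA damage, had 193.9 and 200.2 CPM (0.05).

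A few lipid and immune response genes were at least 2-fold higher. Over all genes kept 1.17% were higher and 0.769% lower, so counts this small in lists of this size say little. Of 32 sterol and fatty acid genes 29 were kept with 2 higher, 0 lower and a median of 0.28 (-0.32 with TPM, beside -0.50 for all genes). SREBF1, the master factor of lipid synthesis, had 39.9 and 105.3 CPM (2.64-fold, 2.49 to 2.79), and the cholesterol exporter ABCA1 had 21.7 and 56 CPM (1.37). Of 39 interferon response genes 31 were kept with 2 higher, 0 lower and a median of 0.15, the higher ones being OAS3 (14 and 29.6 CPM, 1.08) and IFITM2 (45.9 and 95.5 CPM, 1.06). MHC class I genes (16 of 18, median 0.05) had 0 past 2-fold, with NLRC5, their transactivator, at 0.93 and PSMB8 at 0.37. Only 2 of 13 MHC class II genes were kept, RFX5 (0.26) and HLA-DOA (-0.03). Of 30 adhesion and homing genes 24 were kept with 1 higher, the integrin ITGB7 (3.09 and 6.49 CPM, 1.06), 0 lower and a median of 0.17. With total counts 0 interferon genes and 0 adhesion genes were at least 2-fold higher, against 2 sterol and fatty acid genes. The gut-homing receptor CCR9 had 182.4 and 132.2 CPM (-0.46). Glycolysis (23 of 24, median 0.21), ribosome biogenesis (33 of 33, median 0.03) and polycomb and DNA methylation genes (32 of 32, median 0.08) had 0 past 2-fold. Their largest ratios were PFKP (0.46) and LDHB (0.44), NOP14 (0.48) and NPM1 (0.42), and DNMT1 (0.53) and PCGF1 (0.49).

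Most markers of other cell types were under the floor in both libraries, with TFRC and VIM as abundant exceptions. Of 18 B-lineage markers 3 were kept and 3 (MS4A1, BANK1 and FCRLA) had 0 counts in both, and their summed level was 124 and 156.7 CPM, made up largely of CD79A (35.2 and 49.3 CPM) and IGLL1 (38.4 and 47.2 CPM). Of 24 myeloid markers 3 were kept and 6 were at 0, SPI1 among them, with sums of 57.7 and 61.2 CPM. CSF3R (0.55) and CEBPA (-0.51) had the largest ratios. Of 21 natural killer markers 3 were kept and 7 were at 0, with sums of 54.3 and 52.9 CPM, and PRF1, perforin, had 4.61 and 9.51 CPM (1.04). Of 20 erythroid and megakaryocyte markers 2 were kept, TFRC (559 and 540 CPM) and EPOR (9.04 and 9.77 CPM), and 12 were at 0, HBB among them. Of 20 stromal and epithelial markers 4 were kept and 5 were at 0, EPCAM among them, and the sum of 745.5 and 1008 CPM came mostly from VIM (673 and 932 CPM), which leukaemia cells also express. In bulk RNA, fewer cells of a type and less RNA per cell cannot be told apart.

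Mitochondrial RNAs were lower and many small non-coding RNAs higher with STAG2. The mitochondrial ribosomal RNA MT-RNR2 had 26220 CPM with the empty vector and 4551 CPM with STAG2 (5.76-fold lower, 5.73 to 5.79), and MT-RNR1 had 3343 and 669 CPM (5.00-fold lower, 4.94 to 5.06). All 12 mitochondrial protein-coding genes kept had negative ratios, 5 were at least 2-fold lower, and the median was -0.95. MT-ND4L had 149 and 57.8 CPM (-1.37). By class, 21 of 66 small RNAs (31.8%) were at least 2-fold higher and 0 lower (median 0.59), and of the 28 small nucleolar RNAs 13 were higher. Over all genes kept, 1.17% were at least 2-fold higher and 0.769% lower. RN7SK, which holds the elongation factor P-TEFb inactive, had 20270 and 43160 CPM (1.09), and the signal recognition particle RNA RN7SL1 had 11610 and 25640 CPM (1.14). Both lay close to the 2-fold line, and total counts in place of TMM shifted the median of all genes by -0.20. RPPH1, the RNA of RNase P, had 3287 and 9111 CPM (1.47), and SNORA73A had 357 and 959 CPM (1.42). Abundant small RNAs were thus higher and mitochondrial RNAs lower in the STAG2-transduced library. The copies of 5.8S ribosomal RNA had the largest ratios, but they are near-identical and share reads. RNA5-8SN4 had 9.66 and 206.3 CPM, and RNA5-8SN1 and RNA5-8SN3 had 9.16 and 96.7 CPM. Further copies share the name RF00002. That on the contig KI270733.1 had 9.66 and 206.3 CPM and that on chromosome 21 had 294 and 96.7 CPM, so single copies are uncertain. Of 525 long non-coding RNAs 12 (2.29%) were higher and 7 (1.33%) lower. CCDC26 had 1.01 and 7.06 CPM (2.74), LINC00667 13.7 and 3.14 CPM (-2.11), and the nuclear MALAT1 2808 and 1439 CPM (-0.96). The mitochondrial pseudogene MTND2P28, which shares reads, had -1.63.

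PF-382 offers the opposite manipulation, with STAG2 knocked out. STAG2 itself had 305 and 518.5 CPM in the 2 wild-type libraries and 241.8, 170.7 and 184.9 CPM in the 3 knockout libraries. STAG1 had 51.7 and 45.6 CPM in wild type and 130.5, 131.6 and 134 CPM in knockout, while it had 124.7 and 130.3 CPM in MOLT-14. Each line was scaled by itself, so CPM levels of MOLT-14 and PF-382 are not on one scale. Genes were counted as different in PF-382 when all libraries of one group lay above all of the other and the means were at least 2-fold apart. In all, 4.39% of 10357 genes were higher in wild type and 8.30% were lower. Of the MOLT-14 genes higher with STAG2, 78 could be measured in PF-382, of which 22 (28.2%) were higher in wild type and 4 (5.13%) lower. Of the genes lower with STAG2, 38 could be measured, of which 11 (28.9%) were higher in wild type and 4 (10.5%) lower. With TMM and all PF-382 libraries, the share higher in wild type was thus above the background in both lists and of like size. This held whichever way the genes differed in MOLT-14. With total counts the relation changed, as 10 of the higher and 24 of the lower genes were higher in wild type. The PF-382 groups also differed in make-up: small RNA took 21% and 14.9% of counts in wild type and 12% to 14% in knockout, and 8 of the 22 shared higher genes were small nucleolar RNAs. The part of this in the shared counts was not tested. Without wild-type replicate 1, 15 of the higher genes were higher in wild type and 13 lower, so these counts rest heavily on that library. Without wild-type replicate 2, 15 of the lower genes were higher in wild type and 7 lower.

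Protein-coding genes higher with STAG2 in both lines were, besides STAG2, ABCA1, FLT1 (a VEGF receptor), FOXB1, GIMAP1, PLIN2 (a lipid droplet coat), RGS12, SMIM24 and TEX19. ABCA1 had 66.1 and 18.1 CPM as means of wild-type and knockout PF-382 libraries, and GIMAP1 7.47 and 1.13 CPM. GIMAP2 was higher in both wild-type libraries (45.4 and 47 CPM) than in the knockout ones (22.4, 24.6 and 38.9 CPM), short of 2-fold in mean. GIMAP6 had means of 1.41 and 0.301 CPM with overlapping groups, and GIMAP5, at 1.76 and 3.73 CPM, was lower in wild type. GIMAP1-GIMAP5, with shared reads, had means of 2.57 and 0.637 CPM and GIMAP4 of 0.292 and 0.0198 CPM. GIMAP7 and GIMAP8 were under 1 CPM in every PF-382 library. VCAN, ID1 (an E-protein inhibitor) and AC008581.2 were lower with STAG2 in both lines, VCAN at 2.45 and 6.35 CPM in wild-type and knockout PF-382. Among the genes reported, the opposite pattern was seen for ATF5, TRIB3, GADD45B, P3H3, C11orf96 and MT-ND4, lower with STAG2 in MOLT-14 and higher in wild-type PF-382. It was also seen the other way for HIST1H1T, HIST1H4D and MAT1A. LMO2, level in MOLT-14, had 25.1 CPM in wild-type and 8.06 CPM in knockout PF-382, and CD34 had 0.828 and 6.19 CPM in wild type and 3.54, 4.62 and 10.5 CPM in knockout.

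**Figure D5:**
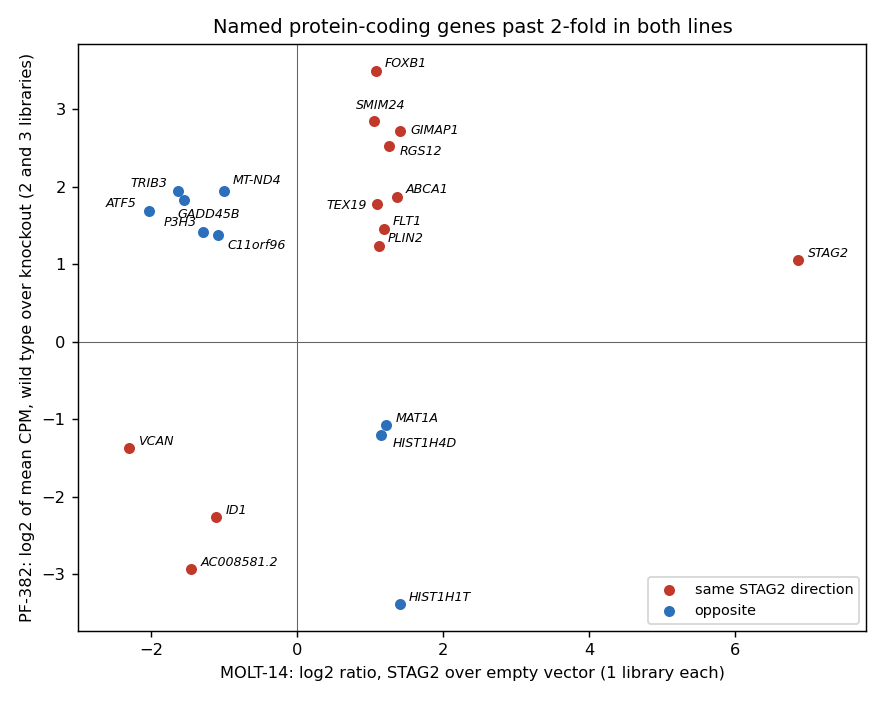
Protein-coding genes named in the text past 2-fold in MOLT-14 whose PF-382 groups also did not overlap and differed 2-fold in mean. The horizontal axis is the MOLT-14 log2 ratio (STAG2 over empty vector, 1 library each), the vertical axis the PF-382 log2 ratio of mean CPM (2 wild-type over 3 knockout libraries). Red genes share the STAG2 direction, blue genes such as ATF5 (-2.03 and 1.69) do not.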

How the data were processed

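Total RNA libraries of cell lines were aligned and quantified with STAR and RSEM on GRCh38/hg38, per the submitters' processing notes. Versions, annotation release and strand setting are not given in the sources used here. The authors deposited expected counts (gene-level read estimates without normalisation), TPM and FPKM, per the file headers. Expected counts were rounded, 92 ERCC spike-in features were left out, and CPM used TMM-scaled totals (edgeR 4.0.16, R 4.3.3) of the 2 MOLT-14 libraries. Log2 ratios used a prior count of 2 and a floor of 5 CPM in either of the libraries, and the ratio was tested on simulated data. TPM ratios used a pseudocount of 0.1. Intervals are exact binomial (Clopper-Pearson) at 95% and leave out all but counting error, because no molecular identifiers mark single molecules. PF-382 libraries were scaled together by TMM. The titles give each PF-382 library its own code, but nothing says what the codes mean or whether libraries of a group were separate cultures. Positions came from GENCODE 29 for 11415 of the 11442 genes and promoters from RefSeq (GRCh38.p14).

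Named genes were all kept cohesin genes, the 15 highest and 15 lowest protein-coding genes, the 5 highest and 5 lowest others, and from each of 37 lists the 4 largest past 2-fold, or the 2 largest ratios where none was. Other genes were chosen after their values were seen. A few genes are not reported here. Members, lists and tests were chosen with earlier results of these data known. Alternatives were other scalings (total counts, DESeq2 1.42.0 size factors, upper quartile, all 7 libraries, protein-coding genes), prior counts of 0.5 and 5, floors of 1, 10 and 0 CPM, TPM, and leaving out each PF-382 library.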

Additional observations from a re-analysis of the deposited data

Results flagged for a closer look

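For 14 genes reported here the MOLT-14 ratio went against the PF-382 libraries: all wild-type libraries lay on one side of all knockout libraries, in the opposite STAG2 direction and by at least 2-fold in mean. The difference between the lines was not tested. Lower with STAG2 in MOLT-14 and higher in wild-type PF-382 were the stress genes ATF5 (log2 ratio -2.03 in MOLT-14, with PF-382 means of 235.5 CPM in wild type and 73 CPM in knockout) and TRIB3 (-1.64, 112 and 29.1 CPM). GADD45B, a sensor of stress, had -1.55 (21.5 and 6.09 CPM), P3H3 -1.29 (12.2 and 4.58 CPM) and C11orf96 -1.08 (6.27 and 2.41 CPM). The mitochondrial RNAs MT-RNR1 (-2.32, 136.9 and 37.1 CPM), MT-RNR2 (-2.53, 669.6 and 115.5 CPM) and MT-ND4 (-1.003, 146.3 and 38.2 CPM) and the pseudogenes MTCO1P12 (-1.10, 5.26 and 2.58 CPM) and TPT1P9 (-1.01, 7.28 and 3.02 CPM) showed the same. Higher with STAG2 in MOLT-14 and lower in wild-type PF-382 were the histone genes HIST1H1T (1.40, 1.10 and 11.5 CPM) and HIST1H4D (1.15, 209.5 and 481.7 CPM), MAT1A (1.22, 6.95 and 14.7 CPM) and the small nucleolar RNA SNORD3B-2 (1.51, 59 and 123.6 CPM), which has a near-identical copy.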

How the results depend on the processing

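No paired analysis was possible because the 2 MOLT-14 groups have 1 library each and no test was made. With TPM the STAG2 log2 ratio was 4.97, and under the other settings it was 6.67 to 6.91. The counts at least 2-fold higher and lower (134 and 88) became 69 and 180 with total counts, 60 and 531 with TPM, 290 and 303 with a floor of 1 CPM and 1081 and 2541 with no floor. With a floor of 10 CPM 50 genes were lower, and among genes with whole counts only, a setting chosen after seeing the data, 88 were higher. Without small RNA, ribosomal and mitochondrial genes, also chosen after seeing the data, 109 were higher and 79 lower.

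The 4 counts of genes shared with PF-382 are given as MOLT-14 higher genes higher in wild type, higher genes lower, lower genes higher, and lower genes lower. From 22, 4, 11 and 4 they became 56, 10, 43 and 14 with a floor of 1 CPM, 206, 78, 447 and 123 with no floor and 12, 2, 6 and 1 with a floor of 10 CPM. With total counts the first 3 were 10, 1 and 24. With TPM the first was 9 and the last 2 were 48 and 28. With the upper quartile the last 3 were 1, 17 and 2, and with protein-coding scaling the third was 20. Leaving out 1 PF-382 library at a time gave 3 to 13 higher genes lower in wild type and 4 to 7 lower genes lower in wild type. Of 396 list medians 90 moved, as did 424 of 2123 values of named genes. Higher genes outnumbered lower ones with TMM, but lower genes outnumbered higher ones with total counts, TPM, the upper quartile, a floor of 1 CPM and no floor. The STAG2 ratio stayed positive under every setting run. Causes were not tested. The main limit is 1 library for each group.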

Other observations

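Genes under the floor of 5 CPM held further differences. GIMAP4 (25 counts in the empty-vector and 164 in the STAG2 library; 6.46-fold, 4.22 to 10.3), TRAC (12 and 97 counts; 7.96-fold, 4.35 to 15.9) and CD2 (53 and 180 counts; 3.34-fold, 2.45 to 4.63) were higher with STAG2. CD68, a lysosomal protein of myeloid cells, was lower (97 and 10 counts). These genes were chosen after their values were seen, and the intervals cover counting error only.

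By chromosome, the median log2 ratio of kept protein-coding genes lay between -0.02 (chromosomes 4 and 13) and 0.13 (chromosome 22), apart from the mitochondrial ones at -0.95. Chromosome 6, which carries the HIST1 cluster, had the largest count of higher genes. Of its 560 protein-coding genes 13 were at least 2-fold higher and 1 lower, beside 0.879% and 0.688% of all protein-coding genes. The part of histone genes in this count was not tested. On the X chromosome, where STAG2 lies, 347 protein-coding genes had a median of 0.04.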
